A study of Mus musculus with 7 samples.

Results

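Egr1, Egr2, Egr3, Nr4a1, Nr4a2, Nr4a3, Nab1 and Nab2 were read in RNA-sequencing of splenic CD4+CD25+ cells from aged and young mice. These 8 genes were chosen by name, as transcription factor families induced by the T cell receptor and the corepressors of one of them, and each matched 1 entry of the deposited series table. That table lists 25469 genes with a count, of the 47729 genes in the count files. All 8 passed the filter on low counts and are among the 13904 genes tested. The aged group was 3 biological replicates from mice of 18 months and the young group 4 biological replicates from mice that the sample labels give as 8 weeks old. Mice of both groups were wild type (WT) male C57BL/6 animals without surgery or treatment named in the labels. In the paper these isolates stand for the Tregs of each age. The cells were taken with magnetic beads, so that the groups are bulk isolates enriched for regulatory T cells (Tregs) and not sorted by Foxp3. Whether a replicate was 1 mouse or a pool is not given in the sources used here. Levels are gene counts scaled to library size with TMM factors (CPM). In bulk samples, fewer expressing cells and less RNA per cell cannot be told apart.

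The Egr genes encode zinc finger transcription factors and the Nr4a genes encode orphan nuclear receptors. Both families are immediate early genes, silent or low in resting T cells and transcribed within minutes of antigen receptor signalling. Egr1 is driven mainly by the Ras and ERK cascade acting on serum response factor (SRF) and its Elk partners, whereas Egr2, Egr3 and the Nr4a genes also depend on calcium, calcineurin and NFAT. Egr2 and Egr3 are known for restraining T cells, since they induce genes of anergy, and Nr4a factors are known for keeping Foxp3 expression and Treg identity and for the programme of chronically stimulated T cells. Nab1 and Nab2 encode corepressors that bind Egr1, Egr2 and Egr3 and recruit the NuRD chromatin remodelling complex, and Egr factors induce Nab2 in turn. Transcripts of Nr4a1 and Egr2 are therefore read as traces of recent receptor signalling in Tregs.

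The sequences upstream of Egr2 and the Nr4a genes are shown with their matches to short motifs, and the function of these matches was not tested. Sites for NFAT were not searched. RefSeq promoter sequences (GRCm38.p6) were matched by symbol for 6 of the 8 genes, and the 250 bases before each start site were searched on both strands. The motif searched was the core of the cAMP response element (CRE), TGACG, or CGTCA on the other strand, and the CArG box, which SRF binds, was searched by its consensus. Capitals mark the CRE core and, in Egr2, the CArG box CCATATATGG. Each line runs 5' to 3' on the strand of the gene. The Egr2 stretch is chr10:67537619-67537868 on the plus strand and ends before the start site of the main annotated transcript. For Nr4a1 it is chr15:101266596-101266845 on the plus strand, and for Nr4a2 chr2:57124004-57124253 on the minus strand. For Nr4a3 only the 98 bases before the first annotated exon are printed, at chr4:48045055-48045152 on the plus strand.
Egr2: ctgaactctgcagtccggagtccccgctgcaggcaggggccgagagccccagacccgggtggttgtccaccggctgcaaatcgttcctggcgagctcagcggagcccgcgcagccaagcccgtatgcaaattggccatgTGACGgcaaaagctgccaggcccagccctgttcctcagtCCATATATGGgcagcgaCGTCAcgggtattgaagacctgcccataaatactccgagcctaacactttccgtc
Nr4a1: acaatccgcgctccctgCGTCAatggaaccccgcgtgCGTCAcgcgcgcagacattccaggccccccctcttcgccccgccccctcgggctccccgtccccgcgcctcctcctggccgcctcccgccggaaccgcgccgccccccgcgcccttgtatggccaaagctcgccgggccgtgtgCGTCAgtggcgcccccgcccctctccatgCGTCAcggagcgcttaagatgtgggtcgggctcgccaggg
Nr4a2: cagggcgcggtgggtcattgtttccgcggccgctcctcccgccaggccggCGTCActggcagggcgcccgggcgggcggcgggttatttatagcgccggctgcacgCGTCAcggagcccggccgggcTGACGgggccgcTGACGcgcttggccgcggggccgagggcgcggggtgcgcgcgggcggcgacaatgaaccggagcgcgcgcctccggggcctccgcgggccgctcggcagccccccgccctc
Nr4a3: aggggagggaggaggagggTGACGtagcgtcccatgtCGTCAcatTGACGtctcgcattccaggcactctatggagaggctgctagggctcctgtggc
In these windows Egr2 held 2 CRE cores, and Nr4a1, Nr4a2 and Nr4a3 held 4 each, 3 of which lie in the printed stretch of Nr4a3. Nab1 held 1 and Nab2 held 0. Among 32851 RefSeq promoters, 17.8% held at least 1 CRE core in the same window, 3.90% at least 2 and 0.688% at least 3. The CArG box of Egr2 spans bases -72 to -63 from the start site, and 1.47% of all promoters held such a box. An Egr binding sequence, GCGGGGGCG, was read at bases -60 to -52 of Nr4a1 on the minus strand and at bases -38 to -30 of Nab1, and 2.57% of promoters held it. The related sequence GCGTGGGCG occurred at 2 places in the Nab1 window, against 0.536% of promoters with any. All matches in the Nab1 window lie before the RefSeq start site at 52500448. They are inside the gene as annotated in GENCODE M21, where Nab1 starts at 52500679. The whole CRE (TGACGTCA), the Nr4a response element (AAAGGTCA) and the AP-1 site (TGACTCA or TGAGTCA) had 0 matches in the 6 windows, against 1.55%, 1.34% and 4.46% of promoters. These matches describe the letters of the windows, and no binding was measured.

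The libraries held 10734234 to 13649310 gene counts, more in each young than in any aged library. Within an age, pairs of libraries differed beyond counting noise (chi-square over its degrees of freedom, 8.88 to 185). Mitochondrially encoded genes took 5.08% to 10.7% of the counts in aged and 2.63% to 3.23% in young libraries. Haemoglobin genes took 1.24% to 13.1% over all 7 libraries and immunoglobulin genes 0.618% to 2.93%. The defining genes of the isolate did not pass the test with age in edgeR, with log2 fold changes of 0.21 for Foxp3 (adjusted p = 0.409), -0.30 for Cd4 (adjusted p = 0.117) and -0.61 for Il2ra, the gene of CD25 (adjusted p = 0.0588). Cd4 was nevertheless lower in every aged (434 to 446 CPM) than in every young library (493 to 633 CPM), while Foxp3, at 394 to 622 CPM, and Il2ra overlapped. Fold changes are given as aged over young throughout, with a standard error (SE) and, where stated, a 95% interval.

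Egr2 was the only gene of the 8 that passed the test with age in edgeR's quasi-likelihood test, at an adjusted p under 0.05 over all 13904 genes, and it rose 1.96-fold in aged Tregs. Nr4a2 had a fold of 2.10 in the same direction with a wider interval, and the other 6 genes had estimates below 0. Across all genes tested, 16.7% passed the test, 9.80% as higher and 6.94% as lower in aged Tregs, so that 1 call among 8 is close to the background. The per-library values of aged and young Tregs did not overlap for 3 of the 8, with Egr2 and Nr4a2 higher and Nr4a3 lower in aged Tregs, beside 29.9% of all genes tested. At an unadjusted p under 0.05 there were 4 of the 8 (Egr2, Nr4a1, Nr4a2 and Nr4a3), against 32.7% of all genes. The median log2 fold change of the 8 was -0.43, and that of all genes tested 0.019. With 3 against 4 libraries, the exact two-sided permutation test over samples cannot go below 0.0571, so no single gene can pass 0.05 in it.

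**Figure D1:**
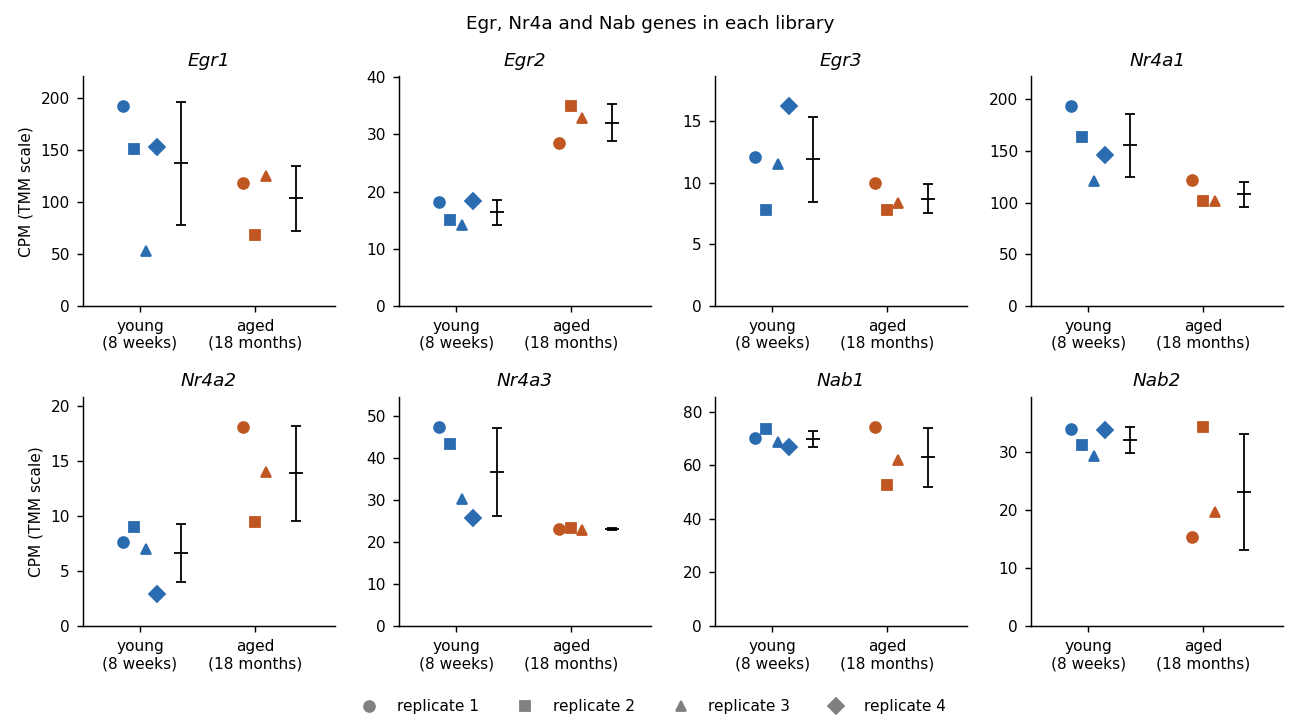
Level of each of the 8 genes in each library (CPM on the TMM scale), young and aged, with the mean and SD of each age as bars beside the points. All 3 aged libraries lie above all 4 young libraries for Egr2 and Nr4a2 and below them for Nr4a3, and the ages overlap for the other 5 genes.

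Egr2 (ENSMUSG00000037868) lies on the plus strand at chr10:67535475-67542188 of GRCm38. It was at 28.5, 34.9 and 32.8 CPM in aged replicates 1, 2 and 3, and at 18.1, 15.0, 14.1 and 18.4 CPM in young replicates 1, 2, 3 and 4. The lowest aged library was above the highest young library, and within each age the libraries lay close together, with a coefficient of variation of 10.3% in aged and 13.4% in young Tregs. Mean levels were 32.1 ± 3.29 CPM (SD, n = 3) against 16.4 ± 2.19 CPM (SD, n = 4), or 0.97 as a log2 fold change (SE 0.139, 95% interval 0.65 to 1.28, adjusted p = 0.00343, edgeR). The exact permutation p was 0.0571, the smallest that this design allows. Egr2 kept its direction in 21 of 21 alternative fits and was called in 20, the exception being the fit with the replicate number as a block. Left without mitochondrial, immunoglobulin and haemoglobin genes, its log2 fold change was again 0.97 (adjusted p = 0.00260, edgeR).

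Egr1 (ENSMUSG00000038418), the member of the family most tied to ERK signalling, lies on the plus strand at chr18:34859823-34864984. Aged replicates 1 to 3 stood at 118, 67.9 and 125 CPM, and young replicates 1 to 4 at 192, 151, 52.7 and 153 CPM. Young replicate 3 was the lowest of all 7 libraries and aged replicate 2 the next, and the ages overlapped. Among the young, the highest library was 3.65 times the lowest, the widest spread of the 8 genes within an age. On the log2 scale the fold change was -0.41 (SE 0.396, 95% interval -1.31 to 0.50, adjusted p = 0.518, edgeR; exact permutation p = 0.571). It was -0.68 without young replicate 3 (adjusted p = 0.115) and -0.18 without aged replicate 2 (adjusted p = 0.810), both from edgeR, and Egr1 was not called in any of 21 alternatives.

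Egr3 (ENSMUSG00000033730), which acts with Egr2 in restraining T cells, lies on the plus strand at chr14:70077203-70082614 and had the fewest counts of the Egr genes, 77 to 226 per library. It was at 10.05, 7.75 and 8.33 CPM in the aged and at 12.1, 7.78, 11.5 and 16.2 CPM in the young replicates. Young replicate 2 lay level with aged replicate 2, so that the ages overlapped. Aged over young gave a log2 fold change of -0.45 (SE 0.245, 95% interval -1.01 to 0.11, adjusted p = 0.245, edgeR), a value of the opposite sign to that of Egr2. The estimate was -0.61 without young replicate 2 and -0.26 without young replicate 4. Egr3 was called in 0 of 21 alternatives, with adjusted p-values from 0.0788 to 0.502.

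Nr4a1 (ENSMUSG00000023034), which encodes Nur77, lies on the plus strand at chr15:101254269-101274795. Aged replicates 1 to 3 had 122, 101 and 101 CPM, and young replicates 1 to 4 had 193, 163, 120.4 and 146 CPM. Aged replicate 1 lay just above young replicate 3, and every other aged library was below every young library. The log2 fold change was -0.53 (SE 0.164, 95% interval -0.90 to -0.15, adjusted p = 0.0611, edgeR; exact permutation p = 0.114). It was -0.63 without aged replicate 1 (adjusted p = 0.0454) and -0.63 without young replicate 3 (adjusted p = 0.0416), so that leaving out either library brought the call, and over 21 alternatives Nr4a1 was called in 4 with adjusted p-values from 0.0156 to 0.182.

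Nr4a2 (ENSMUSG00000026826), which encodes Nurr1, lies on the minus strand at chr2:57106830-57124003. Aged replicates 1 to 3 were at 18.1, 9.47 and 14.04 CPM, and young replicates 1 to 4 at 7.60, 8.97, 6.95 and 2.87 CPM. The ages did not overlap, but aged replicate 2 and young replicate 2 lay close to each other. Young replicate 4 was the lowest by a wide margin, at 40 counts, with an exact 95% Poisson interval of 28.6 to 54.5 counts that covers counting error only. With age the log2 fold change was 1.07 (SE 0.364, 95% interval 0.24 to 1.91, adjusted p = 0.0787, edgeR; exact permutation p = 0.0571, the smallest possible). Its estimate was 0.82 without young replicate 4 and 0.83 without aged replicate 1, and 1 of 21 alternatives, DESeq2, called it (adjusted p = 0.0213), in a range up to 0.191.

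Nr4a3 (ENSMUSG00000028341), which encodes Nor1, lies on the plus strand at chr4:48045153-48086447. The aged replicates were at 23.2, 23.3 and 22.8 CPM, and the young replicates at 47.6, 43.4, 30.2 and 25.7 CPM. All aged libraries were below all young libraries, with a coefficient of variation of 1.05% among the aged and 28.5% among the young. The log2 fold change was -0.67 (SE 0.214, 95% interval -1.16 to -0.18, adjusted p = 0.0663, edgeR; exact permutation p = 0.0571, the smallest possible). Without young replicate 4, the library nearest the aged, it was -0.80 and passed the test (adjusted p = 0.0357, edgeR). Nr4a3 was called in 5 of 21 alternatives, with adjusted p-values from 0.0165 to 0.165. The estimates of Nr4a2 and of Nr4a3 thus lay on opposite sides of 0, in all 21 alternatives for each gene.

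Nab1 (ENSMUSG00000002881), at chr1:52457294-52500679 on the minus strand, had the narrowest range of the 8 genes over all 7 libraries, 0.50 on the log2 scale, but among the aged alone its coefficient of variation of 17.6% was above those of Egr2, Egr3, Nr4a1 and Nr4a3. It was at 74.5, 52.5 and 62.0 CPM in the aged and at 70.3, 73.6, 68.6 and 66.7 CPM in the young replicates, and the aged libraries fell on both sides of the young. Its log2 fold change was -0.15 (SE 0.121, 95% interval -0.42 to 0.13, adjusted p = 0.445, edgeR). The estimate was -0.29 without aged replicate 1 and -0.03 without aged replicate 2, and neither passed the test. The interval leaves room for a fall to 0.745 of the young level or a rise to 1.09 of it.

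Nab2 (ENSMUSG00000025402), the corepressor that Egr factors induce, lies on the minus strand at chr10:127660918-127668568. Aged replicates 1, 2 and 3 were at 15.3, 34.4 and 19.7 CPM, and young replicates 1 to 4 at 34.0, 31.2, 29.3 and 33.8 CPM. Aged replicate 2 was the highest of all 7 libraries, whereas the other aged libraries were below every young library. The log2 fold change was -0.47 (SE 0.248, 95% interval -1.04 to 0.09, adjusted p = 0.224, edgeR; exact permutation p = 0.286). Without aged replicate 2 it was -0.88 (adjusted p = 0.0127, edgeR), which is past the threshold, and it ran from there to -0.25 when other libraries were left out. Of the 2941 exon bases of Nab2, 42.2% overlap exons of Gm16229, Nemp1 or Stat6 in GENCODE M21, and counting without strand cannot assign reads from those bases. The other 7 genes share no exon base with another gene in that annotation.

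**Figure D2:**
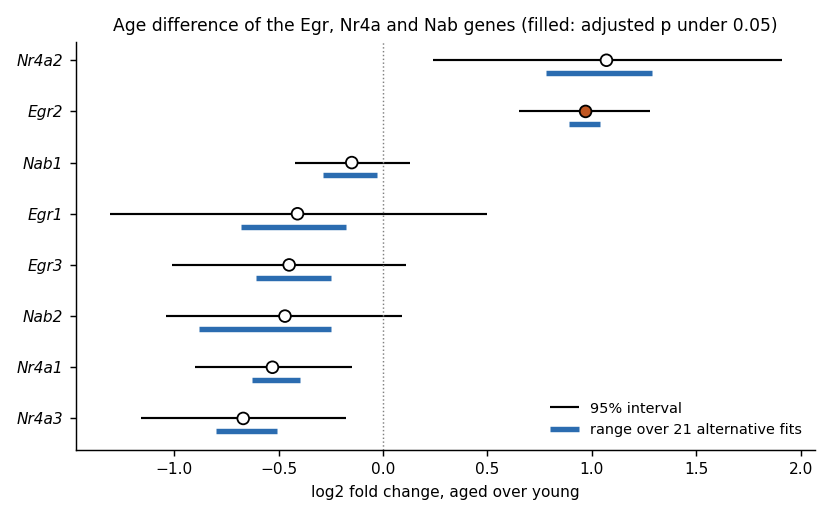
Log2 fold change of each gene, aged over young, from edgeR, with the 95% interval as a thin line and the range of estimates over 21 alternative fits as a thick bar. Egr2 at 0.97 is the filled point that passed the test, and no bar of the alternatives crosses 0.

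Ratios between genes of the same library do not depend on how libraries are scaled to each other, and they were taken per exon base on the log2 scale. They are given as descriptions without a test. Egr2 over Egr3 was 1.88, 2.55 and 2.35 in the aged and 0.95, 1.32, 0.67 and 0.56 in the young replicates. The ages did not overlap, and the mean ratio was 2.61 times larger in aged Tregs. Egr2 over Nab2 stood at 0.69, -0.19 and 0.53 in the aged and -1.12, -1.26, -1.27 and -1.09 in the young replicates, which is 2.88 times larger in aged Tregs without overlap. Over the 1700 exon bases of Nab2 that no other gene shares, a length chosen after the data were seen, the ratio was -0.10, -0.98 and -0.26 in the aged and -1.91, -2.06, -2.06 and -1.88 in the young replicates, so that its sign in aged replicates 1 and 3 depends on the length taken for Nab2 and the separation of the ages does not. Nr4a2 over Nr4a3 was 0.20, -0.74 and -0.14 in the aged and -2.09, -1.71, -1.56 and -2.60 in the young replicates, a 3.39 times larger ratio in aged Tregs with no overlap. Nr4a2 over Nr4a1 was also separate, by 3.14 times.

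Other ratios overlapped between ages. Nr4a3 over Nr4a1 had a mean of -2.99 ± 0.156 (SD, n = 3) in aged and -2.88 ± 0.268 (SD, n = 4) in young Tregs, means that differ by less than either SD. Egr3 over Egr1 was -3.50 ± 0.387 (SD, n = 3) and -3.40 ± 0.925 (SD, n = 4). Egr2 over Egr1 averaged -1.24 and -2.53 but overlapped, because young replicate 3, with the low Egr1, stood at -1.51. Nab2 over Nab1 was 1.31 times smaller in aged Tregs, and aged replicate 2 at -0.13 was above all young libraries. Over the unshared bases of Nab2 its mean was -0.25 in aged and 0.15 in young Tregs.

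**Figure D3:**
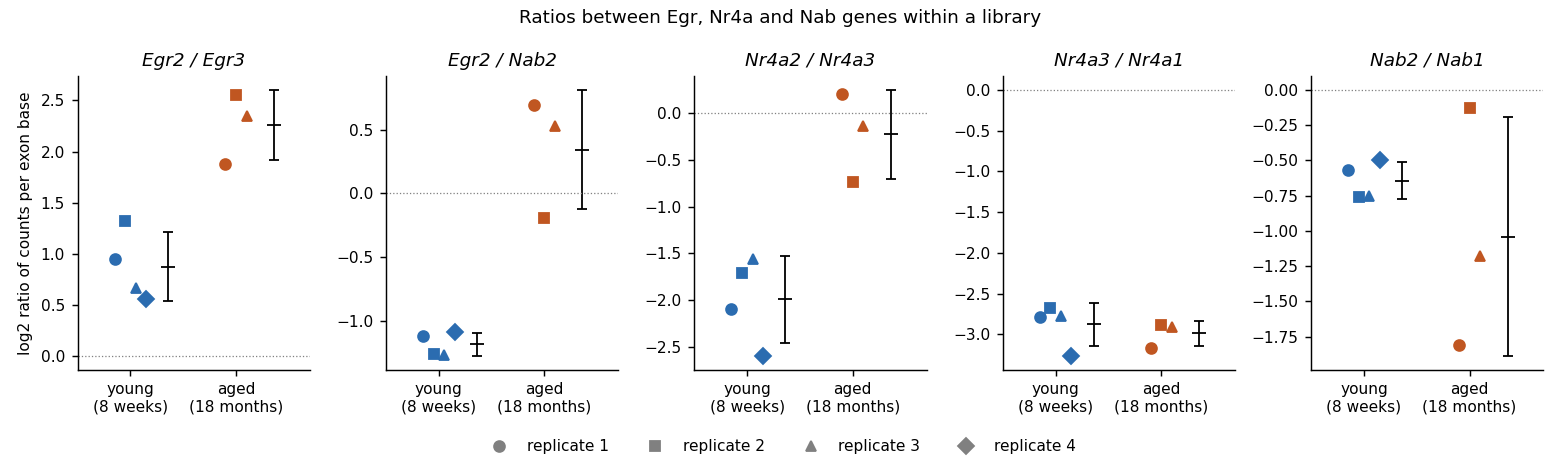
Log2 ratio of counts per exon base between pairs of the genes in each library, with the mean and SD of each age as bars. Egr2 over Egr3, Egr2 over Nab2 and Nr4a2 over Nr4a3 are higher in every aged than in every young library, while Nr4a3 over Nr4a1 and Nab2 over Nab1 overlap.

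As a share of the summed level of the Egr family per kilobase of exon, Egr2 made up 22.7%, 37.8% and 24.5% in the aged and 10.5%, 11.1%, 22.4% and 12.5% in the young replicates. The nearest libraries were aged replicate 1 and young replicate 3. Egr1 held most of the family level at both ages, 65.8% ± 8.78 (SD, n = 3) and 77.8% ± 9.81 (SD, n = 4). In the Nr4a family, Nr4a1 held 80.9% ± 1.26 (SD, n = 3) in aged and 85.2% ± 2.81 (SD, n = 4) in young Tregs, and Nr4a2 8.86% ± 1.94 and 3.13% ± 1.21, neither overlapping between ages.

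The order of levels was read in CPM per kilobase of exon. In young Tregs it ran Nr4a1 44.3, Egr1 30.6, Nab1 17.0, Nab2 10.9, Nr4a3 6.13, Egr2 4.82, Egr3 2.70 and Nr4a2 1.63. Nr4a1 and Egr1, Egr1 and Nab1, Nr4a3 and Egr2, and Egr3 and Nr4a2 overlapped between neighbours, and the other neighbours were separate. In aged Tregs the order was Nr4a1 30.8, Egr1 23.1, Nab1 15.4, Egr2 9.43, Nab2 7.86, Nr4a3 3.86, Nr4a2 3.42 and Egr3 1.98. Egr1 and Nab1, Egr2 and Nab2, and Nr4a3 and Nr4a2 overlapped. Egr2 was at rank 6 in young and rank 4 in aged Tregs, and Nr4a2 at rank 8 and rank 7. The place of Nab2 rests on its full exon length, of which 42.2% is shared with other genes. Over its unshared bases Nab2 was at 18.9 in young and 13.6 in aged Tregs, which puts it at rank 3 in young, above Nab1, and at rank 4 in aged Tregs, above Egr2 at rank 5. Over all libraries, the mean level per kilobase of Nr4a1 was above that of 91.5% of genes tested that had a length, Egr1 above 87.5%, Nab1 above 78.0%, Nab2 (full length) above 65.2%, Egr2 above 55.8% and Nr4a3 above 48.5%. Egr3 and Nr4a2, the lowest, were each above 31.2%.

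For each gene whose log2 CPM ranged over at least 1 between libraries, the 3 genes with the nearest profile over the 7 libraries were sought among 9425 genes. Likeness is the root mean square (RMS) difference of log2 CPM centred on each gene's mean, and the libraries of all genes are shared, so the values are descriptions. Nearest to Egr1 were Jund (RMS 0.350), an AP-1 subunit, Gm13456 (0.364) and Zfp36 (0.373), which encodes an RNA-destabilising protein, and Jund and Zfp36 are themselves immediate early genes. Nearest to Egr2 were Rccd1 (0.0631), Dennd6b (0.106) and the mitochondrially encoded mt-Nd6 (0.107), each called higher in aged Tregs. Nr4a2 lay nearest to Itgb8 (0.228), an integrin chain that activates TGF-beta, Gprin3 (0.252) and Ccr8 (0.310), a chemokine receptor of activated Tregs. Itgb8 was at 68.4, 34.0 and 60.7 CPM in the aged and 30.4, 30.8, 25.1 and 16.8 CPM in the young replicates, with aged replicate 2 the lowest aged and young replicate 4 the lowest young library as for Nr4a2. Itgb8 (log2 fold change 1.08, adjusted p = 0.0306, edgeR) and Gprin3 (1.10, adjusted p = 0.0409) passed the test and Ccr8 (1.06, adjusted p = 0.0508) did not. These calls turned with the processing, since of 21 alternatives Itgb8 was called in 15, Gprin3 in 10 and Ccr8 in 12. Itgb8 and Gprin3 each missed the threshold without aged replicate 1 or 3 or young replicate 1, 3 or 4, with Gprin3 at 0.70 without aged replicate 1, and Ccr8 passed it without young replicate 2 (1.43, adjusted p = 0.00478, edgeR).

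For Egr3 the nearest were Cd8b1 (RMS 0.146), the CD8 beta chain, Zbtb7a (0.158) and Dock5 (0.164). For Nr4a3 they were Ccdc109b (0.102), Plagl1 (0.170) and Klhdc1 (0.182), and for Nab2 Tbxa2r (0.125), the thromboxane receptor, Saysd1 (0.132) and Phf23 (0.153). None of these 9 genes passed the test with age. Nr4a1 and Nab1 ranged over 0.94 and 0.50 on the log2 scale and were not searched. Among the 8 genes themselves, the closest pair was Nr4a1 and Nr4a3 (RMS 0.201) and the farthest Nr4a2 and Nab2 (1.12).

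Immediate early genes other than the 8 were read beside them. The list was not sorted by the direction in which receptor signalling moves each gene, and its counts do not measure activation. Of 30 listed and tested, 2 rose, 8 fell and 20 did not pass the test, with a median log2 fold change of -0.39, against 16.7% called and a median of 0.019 over all genes. Those that rose were Fosl2, which encodes the AP-1 subunit Fra-2, and Ier3. Fosl2 was at 30.7, 22.0 and 30.7 CPM in the aged and 10.9, 11.7, 7.82 and 6.31 CPM in the young replicates (log2 fold change 1.60, SE 0.232, adjusted p = 0.00364, edgeR). Ier3 was low, at 4.19, 4.83 and 4.68 CPM in the aged and 2.45, 0.771, 1.74 and 1.43 CPM in the young replicates (1.53, adjusted p = 0.0202, edgeR). The genes that fell were Fos, Jun, Dusp2, Klf2, Dusp6, Rgs2, Myc and Srf.

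Jun, an AP-1 subunit, was at 171, 117 and 118 CPM in the aged and 495, 566, 177 and 464 CPM in the young replicates (log2 fold change -1.65, SE 0.369, adjusted p = 0.0199, edgeR). Fos was at 334, 149.7 and 158 CPM in the aged and 860.1, 1054, 239.8 and 637 CPM in the young replicates (-1.71, SE 0.498, adjusted p = 0.0495, edgeR), and the ages overlapped. Its call held in 9 of 21 alternatives, with the same direction in all 21. Without aged replicate 3, or without young replicate 4, 3 of the 30 genes were called in place of 10. Of all genes, 8.90% and 9.03% were called in these fits, so that 3 of 30 is close to the background. There were 4 without young replicate 1 (9.58% of all genes), 5 without aged replicate 2 (12.2%) and 6 without young replicate 2 (14.5%). The count was 8 without young replicate 3 (9.28%), 14 without aged replicate 1 (21.5%) and 14 in DESeq2 (11.4%). Srf, which acts upstream of Egr1, passed the test at -0.41 (adjusted p = 0.0395, edgeR) and was called in 11 of 21 alternatives, with Jun, Ier3 and Myc in 16 each, Dusp6 in 14 and Rgs2 in 11.

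Libraries of the same age were unlike each other in these genes. Young replicate 3 was the lowest young library in 24 of the 30 genes, where 23.7% of all genes had it lowest, and its median deviation from the young mean was -0.57 on the log2 scale. Aged replicate 2 was the lowest aged library in 20 of the 30, where 33.6% of all genes had it lowest, with a median of -0.38. These counts were made after the values were seen. Among the young, Egr1, Egr2, Nr4a1 and Nab2 were likewise lowest in young replicate 3, Nr4a2, Nr4a3 and Nab1 in young replicate 4, and Egr3 in young replicate 2. Among the aged, Egr1, Egr3, Nr4a2 and Nab1 were lowest in aged replicate 2, whereas Egr2, Nr4a3 and Nab2 were highest there. The part of this difference between libraries in the age estimates was not tested beyond leaving each library out.

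**Figure D4:**
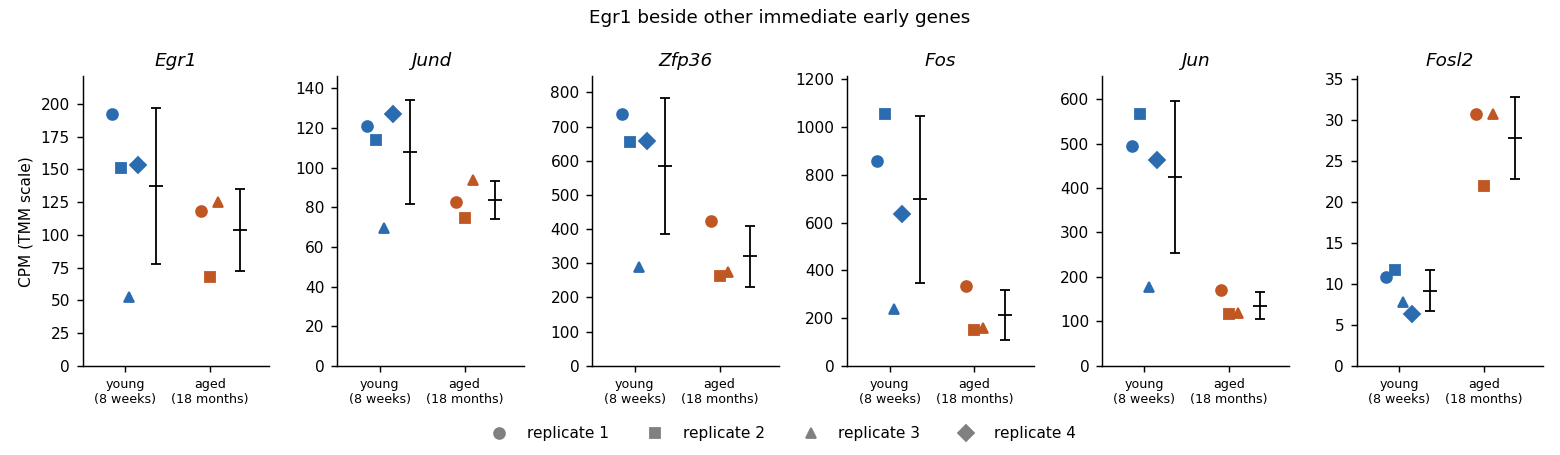
Level of Egr1, Jund, Zfp36, Fos, Jun and Fosl2 in each library (CPM on the TMM scale), with the mean and SD of each age as bars. Young replicate 3 (triangle) is the lowest young library for the first 5 of these genes, and Fosl2 is higher in all aged than in all young libraries.

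Of the Ras, ERK and SRF genes that act upstream of Egr1, 19 were tested, 1 rose and 4 fell, which is 26.3% called beside 16.7% of all genes, with a median log2 fold change of -0.15. The list was not sorted into activators and inhibitors, and its counts do not measure the output of the cascade. Rasgrp1, the exchange factor that activates Ras below the T cell receptor, fell by 0.90 on the log2 scale (SE 0.121, adjusted p = 0.00263, edgeR). It was at 189, 150 and 152 CPM in the aged and 329.9, 315, 294 and 281 CPM in the young replicates, with no overlap. Rasgrp2, an exchange factor for Rap1, fell by 0.85 (adjusted p = 0.00752, edgeR), and Spred2 and Map2k2 also passed the test as lower but were called in only 9 and 8 of 21 alternatives. Elk4, a partner of SRF, rose by 0.42 (adjusted p = 0.0419, edgeR) and was called in 11 of 21 alternatives. Without aged replicate 3 or any of young replicates 1 to 3, 2 of the 19 genes were called. Of all genes, 8.90% to 14.5% were called in these fits, so that 2 of 19 is close to the background. Without aged replicate 2 or young replicate 4 there were 3, beside 12.2% and 9.03%. Rasgrp1 was called in 21 of 21 alternatives.

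Of 18 genes of the calcium, calcineurin and NFAT arm, which acts upstream of Egr2, Egr3 and the Nr4a genes, 0 rose, 1 fell and 17 did not pass the test, which is 5.56% called beside 16.7% of all genes, with a median of -0.11. Orai2, a calcium channel subunit, was at 79.8, 79.8 and 81.9 CPM in the aged and 119.8, 116, 127 and 123 CPM in the young replicates (log2 fold change -0.59, SE 0.0797, adjusted p = 0.00263, edgeR). Without aged replicate 1, and in DESeq2, 4 of the 18 were called, beside 21.5% and 11.4% of all genes.

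Of 17 genes described as targets of Egr2 and Egr3 in T cell anergy, 8 rose, 3 fell and 6 did not pass the test, which is 64.7% called beside 16.7% of all genes, with a median of 0.70. Rnf128, which encodes the ubiquitin ligase GRAIL, was at 5.24, 5.24 and 5.99 CPM in the aged and 0.437, 0.911, 1.11 and 0.430 CPM in the young replicates (log2 fold change 2.90, SE 0.337, adjusted p = 0.00157, edgeR). Its lowest library held 5 counts. Lag3, an inhibitory receptor, was at 124, 98.2 and 224 CPM in the aged and 21.1, 32.1, 22.7 and 25.0 CPM in the young replicates (2.56, SE 0.278, adjusted p = 0.00125, edgeR). Crtam, Nrn1, Socs3, Tnfrsf9, Cdkn1a and Sema7a also rose, with Nrn1 and Tnfrsf9 called in 16 of 21 alternatives, Sema7a in 14 and Cdkn1a in 12.

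The genes of that list that fell were Ndrg1, Itch and Dgkz. Itch, a ubiquitin ligase, had a log2 fold change of -0.42 (adjusted p = 0.0195, edgeR) and was called in 16 of 21 alternatives, and Ndrg1 had one of -0.46 (adjusted p = 0.0401, edgeR), which was called in 12 of 21 alternatives, while Dgkz was called in 11. Cblb, a ubiquitin ligase also described as an Egr2 and Egr3 target, averaged 130.4 ± 20.5 CPM (SD, n = 3) in the aged against 132 ± 11.9 CPM (SD, n = 4) in the young replicates. Lag3, Crtam and Socs3 were called in 21 of 21 alternatives and Rnf128 in the 20 in which it was tested. Without young replicate 1 the list had 4 called genes in place of 11, and without aged replicate 3, young replicate 3 or young replicate 4 it had 5. Of all genes, 9.58% were called without young replicate 1 and 8.90% to 9.28% in the others of these fits.

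Of 18 genes described downstream of Nr4a factors in Tregs and chronically stimulated T cells, 16 were tested, Il4 and Il2 being too low. Of these, 4 rose, 1 fell and 11 did not pass the test, or 31.2% called beside 16.7% of all genes, with a median of 0.42. The list was not sorted by the direction in which Nr4a factors move each gene, and its counts do not measure their activity. Il21, a cytokine of follicular helper T cells, was at 8.999, 6.14 and 13.5 CPM in the aged and 0.350, 0.631, 0.553 and 0.645 CPM in the young replicates (log2 fold change 4.09, SE 0.342, adjusted p = 0.000529, edgeR), with 4 counts in its lowest library. Tigit, an inhibitory receptor, was at 162, 140.4 and 185 CPM in the aged and 49.5, 74.8, 48.9 and 44.8 CPM in the young replicates (1.58, SE 0.186, adjusted p = 0.00162, edgeR). Tox2 and Batf, which encode transcription factors of stimulated T cells, also rose.

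Bcl2l11, which encodes the death-promoting protein Bim, was at 46.6, 38.1 and 38.1 CPM in the aged and 79.6, 85.4, 73.2 and 67.2 CPM in the young replicates (log2 fold change -0.90, SE 0.120, adjusted p = 0.00258, edgeR). Foxp3, Ikzf2, Ctla4 and Il2ra, genes of Treg identity on this list, did not pass the test, with log2 fold changes of 0.21, 0.46, 0.86 and -0.61. Without young replicate 2, 9 of the 16 genes were called in place of 5, beside 14.5% of all genes. In DESeq2, and with GC content and length trends removed, 8 were called, beside 11.4% and 18.3%.

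Of 12 partners and relatives, 9 were tested, since Egr4, Wt1 and Rxrg were too low, and 0 rose and 4 fell, or 44.4% called beside 16.7% of all genes, where 6.94% were lower, with a median of -0.29. Chd4, a NuRD subunit that Nab2 binds, had 439, 392 and 372 CPM in the aged and 634, 582, 619 and 643 CPM in the young replicates (log2 fold change -0.63, SE 0.110, adjusted p = 0.00802, edgeR). Rxra, a dimer partner of Nr4a1 and Nr4a2, was at -0.41 (adjusted p = 0.0449, edgeR), called in 8 of 21 alternatives. Rcor1 and Rxrb also passed the test as lower and were called in 10 and 13 of 21. Leaving out any 1 young library left 1 of the 9 genes called, close to the background of 9.03% to 14.5% of all genes. Leaving out aged replicate 2 or 3 left 2, beside 12.2% and 8.90%. With all libraries kept, 1 was called without a filter (8.72% of all genes) and 1 with GC content and length trends removed (18.3%). Library size or T cell gene scaling left 2 (13.2% and 12.7%), and the replicate block 0 (2.10%).

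**Figure D5:**
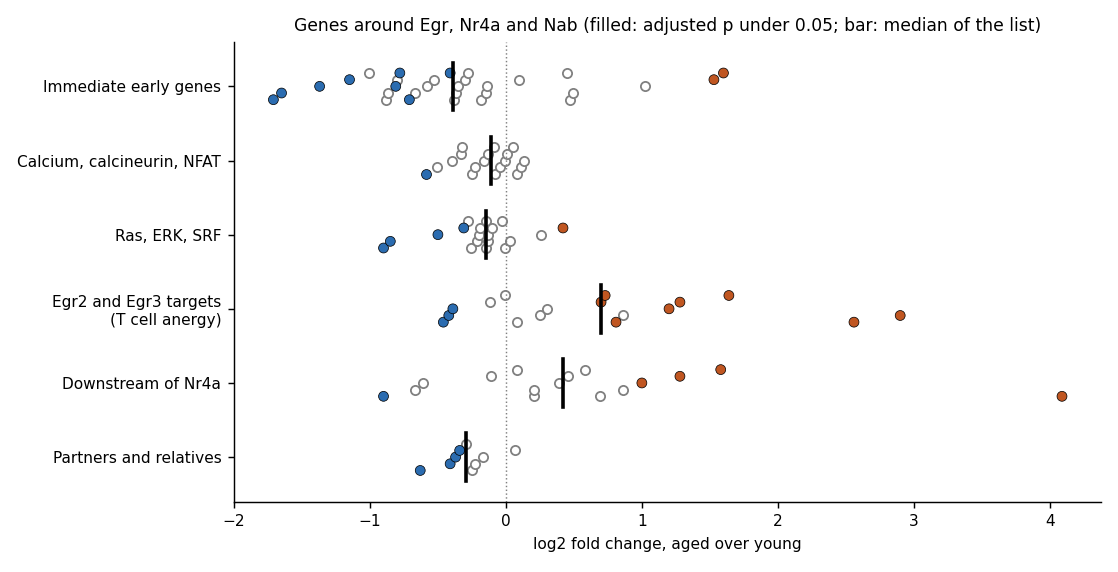
Log2 fold change, aged over young, of every tested gene of the 6 lists around the Egr, Nr4a and Nab genes, filled where the adjusted p was under 0.05, with the median of each list as a bar. The medians run from -0.39 for immediate early genes to 0.70 for Egr2 and Egr3 targets in T cell anergy, beside 0.019 over all genes tested.

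Markers of cells other than Tregs were summed per library, because such cells can also transcribe Egr and Nr4a genes. The 10 dendritic cell markers summed to 151 to 189.9 CPM in aged and 257 to 308 CPM in young libraries, lower in the aged with no overlap, and 1 of them rose and 4 fell. The 8 platelet markers summed to 27.3 to 48.4 CPM in aged and 11.8 to 21.2 CPM in young libraries, higher in the aged with no overlap, and 2 of the 7 tested rose. The 12 neutrophil markers summed to 740 to 5431 CPM in aged and 319.5 to 1019 CPM in young libraries, with 5 higher. Sums of B cell, plasma cell, monocyte or macrophage, NK cell, CD8 T cell and erythroid markers overlapped between ages, as did those of the T cell (4996 to 6449.8 CPM over all libraries) and Treg lists (2792 to 4489 CPM). Within these lists, 1 of 14 monocyte or macrophage markers rose and 4 fell, 2 of 9 NK cell, 2 of 12 Treg and 1 of 12 B cell markers fell, 1 plasma cell and 1 CD8 T cell marker rose, and 1 T cell marker rose and 1 fell. Over all genes tested, 16.7% were called, 9.80% as higher and 6.94% as lower. Single genes without overlap made up 29.9%, and several of the marker counts are close to these shares. No marker found in the files was at 0 in all libraries. The part of these other cells in the levels of Egr2, Nr4a2 and Nr4a3, the genes without overlap between ages, was not tested. Scaled to the T cell markers in place of all genes, Egr2 had a log2 fold change of 0.89 (adjusted p = 0.0126, edgeR), Nr4a2 1.03 (adjusted p = 0.0890) and Nr4a3 -0.73 (adjusted p = 0.0466).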

How the data were processed

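Total RNA of 3 aged and 4 young isolates was made into cDNA with the SMART-Seq v4 kit, which adds no molecular identifiers, so that the Poisson interval of a count and the detection limit cover counting error only. Intervals of fold changes come from edgeR and cover the spread between libraries. The authors deposited raw counts per Ensembl gene for each library, in the layout of HTSeq-count (the naming points to its union mode with strand ignored). Reads that fell outside genes or on more than 1 gene made up 13.1% to 20.9% and were left out. The authors also deposited a series table with a normalized signal, which was checked to equal the count divided by a constant in each library. The 6 other columns of that table hold the authors' own comparison and were not used. The submitters' processing notes name mm10, and the aligner and annotation are not given in the sources used here. Coordinates and exon lengths are those of GENCODE M21 (GRCm38), which may not be the annotation that the authors used. The paper gives the young mice as 10 weeks old and the labels as 8 weeks.

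The ages were compared in edgeR 4.0.16 under R 4.3.3 (TMM, filterByExpr by group, quasi-likelihood test, no covariate), with Benjamini-Hochberg adjustment over 13904 genes and an adjusted p under 0.05 as the threshold. The paper's methods name limma, which is among the alternatives. Standard errors were derived from the log2 fold change and its F statistic. The detection limit of 3 counts equals 0.22 to 0.279 CPM. Exact permutation tests were two-sided over the 35 label assignments. Nothing in the labels says that replicates came from separate animals beyond the words for biological replicates, so p-values measure the spread between these libraries.

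The 8 genes and the lists were chosen with earlier results of these data known. The named genes are the 8 genes, in each list the 2 called genes that rose most and the 2 that fell most, the 3 genes nearest in profile (mean log2 CPM of 3 or more) to each of the 8 that ranged over at least 1, and Foxp3, Cd4 and Il2ra. Other genes were named after their values were seen. Alternatives were DESeq2 1.42.0, limma 3.58.1 (voom, trend with prior count 2, and on the deposited signal with 1 or 0.1 added), RLE, library size or T cell gene scaling, no filter, at least 10 counts in every library, thinning, removal of GC content and length trends, exclusion of mitochondrial, immunoglobulin and haemoglobin genes, a replicate block, and each library left out in turn. DESeq2 and the fit without a filter took in 25469 genes, and the main fit 13904. The code was tested on simulated data.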

Additional observations from a re-analysis of the deposited data

Results flagged for a closer look

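A young library stood apart from the other young libraries in 4 of 63 sets of young values tested, in that its gap to the nearest library over the whole range of the young values was above Dixon's 95% limit. Chance marks about 1 in 20 such sets. For Tigit the ratio was 0.844, with young replicate 2 at 74.8 CPM and the other young libraries at 44.8 to 49.5 CPM. For the log2 ratio of Nr4a1 over Egr1 it was 0.850, since young replicate 3 stood at 1.55 and the others at 0.28 to 0.47. The plasma cell marker sum gave 0.888, with young replicate 2 at 2134 CPM and the next at 612 CPM. The dendritic cell marker sum gave 0.902, with young replicate 2 at 308 CPM and the next at 262 CPM.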

How the results depend on the processing

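Every estimate of the 8 genes kept its sign in 21 of 21 alternatives. In DESeq2, 4 of the 8 were called in place of 1, beside 2910 of 25469 genes in all (11.4%). Its log2 fold changes were -0.55 for Nr4a1, 1.05 for Nr4a2 and -0.69 for Nr4a3. That fit differed from the main one in both the test and the genes taken in. Without a filter, 3 were called, beside 2221 of 25469 genes in all (8.72%), with Nr4a1 at -0.55 and Nr4a3 at -0.69. With library size only, and with T cell gene scaling, 2 were called, beside 1835 and 1764 genes in all (13.2% and 12.7%). Nr4a3 was at -0.73 in each. Leaving out each library in turn gave log2 fold changes of -0.63 to -0.40 for Nr4a1, -0.80 to -0.51 for Nr4a3 and -0.88 to -0.25 for Nab2. It gave 1 to 2 called genes of the 8, 3 to 5 without overlap (beside 33.2% to 46.0% of all genes tested), 17 to 40 called genes of the lists (36 with all libraries) and 1237 to 3058 called genes in all (2327). Of all genes tested in those fits, 8.90% to 21.5% were called. Requiring an absolute log2 fold change of 1 or more left 1016 genes. Egr2 at 0.97, the only one of the 8 called in the main fit, does not meet that cut. The level of Nr4a1 per kilobase over all libraries was 53.0 with the longest transcript in place of all exons (38.5), and that of Nab2 was 16.6 over the exon bases that no other gene shares, a length taken up once the values were known (9.60 with all exons). The causes of these shifts were not tested.

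Nothing in the labels ties aged and young libraries with the same replicate number. Their deviations correlated at -0.0915, -0.292 and -0.138 over genes, beside -0.241 to 0.227 for libraries with unlike numbers. These values cannot settle whether any libraries were prepared together. With the replicate number as a block, 292 genes were called (2.10%), with 10 of the 109 list genes tested and 0 of the 8. Egr2 then had a log2 fold change of 1.03 (adjusted p = 0.0575, edgeR).

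Nr4a2 and Egr3 rest on as few as 40 and 77 counts in a library.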
